A study of Mus musculus with 40 samples.

Results

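DNA replication genes were followed as a set of 35 genes, named by symbol, whose products license origins, open and copy the DNA helix, supply its nucleotides and repack it into chromatin. They were chosen as a list of S-phase genes, with earlier results of these data known. They make up 35 of the 39056 gene identifiers in the deposited gene table. All 35 were among the 15135 genes that passed the filter on low counts. During the G1 phase of the cell cycle the origin recognition complex, Cdc6 and Cdt1 load the Mcm2 to Mcm7 helicase onto DNA, and the helicase is started at S phase by Cdc45, the GINS complex and Mcm10. Transcription of many of these genes is driven by E2F factors, which the retinoblastoma protein holds in check until cyclin-dependent kinases act. Oligodendrocyte progenitors divide, and they leave the cell cycle as they turn into myelin-forming oligodendrocytes.

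The series measured RNA in 40 bulk libraries of cultured oligodendrocyte-lineage cells, 4 in each of 10 groups. Wild-type C57BL/6 pups, labelled 6 to 7 days old, gave cortical progenitors that were immunopanned, passaged 2 times and left to differentiate for 12 to 14 h before any treatment. Untreated cells and cells given the cytokine interferon gamma (IFN-gamma, 200 U/ml) were collected at 1, 8, 24 and 48 h. Cells given thapsigargin, labelled as 200 uM, were collected at 1 and 8 h; this compound blocks the calcium pump of the endoplasmic reticulum (ER) and causes ER stress. The tissue label reads whole brain while the protocol names cortices. No label says whether the 4 libraries of a group came from separate cultures or animals. A p-value here therefore covers only how far libraries of a group differ, with 1 spread per gene shared by all 10 groups. The mean log2 level of the replication genes had an SD of 0.70 in IFN-gamma 48 h. It was 0.06 in untreated 1 h and 0.05 in IFN-gamma 1 h. The shared spread can thus be too small for IFN-gamma 48 h and too large for groups with close libraries. Because the RNA is from bulk cultures, fewer dividing cells and less of an RNA in each cell cannot be told apart in any result here.

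Reads on genes ranged from 13165483 to 22651092 per library, and levels are given as CPM, read counts scaled to a common library size, on TMM-scaled library sizes. The 12 genes of the progenitor list summed to between 4706 and 9859 CPM per library. This list includes Olig2 and Sox10, which are shared by the whole lineage, so the sum does not separate progenitors from later stages. Of 12 microglial markers, 9 stayed under 1 CPM in every library, as did 5 of 7 fibroblast markers, and the lists summed to at most 10.1 and 13.8 CPM per library. Lists of 8 astrocyte and 8 neuron markers summed to 208 to 769 and 853 to 1398 CPM per library. The neuron marker Stmn2 stayed under 1 CPM in every library. Genes of the IFN-gamma response and of ER stress marked their treatments: Irf1, an interferon-induced transcription factor, averaged 1018 ± 31.7 CPM (SD, n = 4) at 8 h of IFN-gamma against 24.5 ± 1.30 in untreated cells, and the ER stress factor Ddit3 averaged 559 ± 27.3 at 8 h of thapsigargin against 6.47 ± 1.05. Some libraries stood apart in maturation. At 48 h, untreated replicate 2 had 255 CPM of Mbp, a major myelin gene, where the other untreated libraries had 1731 to 2718, and IFN-gamma replicate 1 had 45.2 where the other IFN-gamma libraries had 193 to 425. At 24 h, untreated replicate 4 had 325 CPM of Mbp against 89.8 to 120 in its group. The libraries also differed in Y-linked RNA. In every IFN-gamma group 2 of 4 libraries, IFN-gamma 48 h replicate 1 among them, had Y-linked genes summing to at most 8.18 CPM. No untreated library did. Thapsigargin replicate 2 was low in these genes too, at 29.6 CPM at 1 h and 24.98 at 8 h. Xist, the RNA of the inactive X chromosome, varied among untreated libraries as well. Untreated 1 h replicate 1 had 183 CPM of Xist beside 144 CPM of Y-linked RNA, and replicate 4 had 0 beside 275. The sex of the sources was not tested. For the replication genes, comparisons that include a library apart in maturation are given with and without at least 1 such library. The libraries low in Y-linked RNA were not left out as a set. A term for the Y-linked level was fitted instead.

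Upstream sequences are shown for the genes of the replicative helicase, whose subunits form 1 complex but fell by unequal amounts with thapsigargin, and for Uhrf1, which has 2 annotated starts. Each stretch is RefSeq sequence of the GRCm38.p6 build, 5′ to 3′ on the gene's strand, ending at or just before the annotated start and holding no annotated exon. Capitals mark matches to E2F letters (the letters TTCCCGC and also the variants TTGGCGC as well as TTCGCGC and finally TTGCCGC on either strand) and to CCAAT on either strand. RefSeq windows were found for 31 of the 35 genes, the others being Mcm4, Gins1, Gins2 and Pole.
Mcm2 chr6:88898781-88898930 minus strand: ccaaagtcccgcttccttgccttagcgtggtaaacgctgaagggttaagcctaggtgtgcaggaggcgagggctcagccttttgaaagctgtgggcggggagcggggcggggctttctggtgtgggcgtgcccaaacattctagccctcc
Mcm3 chr1:20820313-20820462 minus strand: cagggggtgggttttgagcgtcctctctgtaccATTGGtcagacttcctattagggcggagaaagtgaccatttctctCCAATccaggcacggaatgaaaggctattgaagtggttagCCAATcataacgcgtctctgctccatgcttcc
Mcm5 chr8:75109359-75109508 plus strand: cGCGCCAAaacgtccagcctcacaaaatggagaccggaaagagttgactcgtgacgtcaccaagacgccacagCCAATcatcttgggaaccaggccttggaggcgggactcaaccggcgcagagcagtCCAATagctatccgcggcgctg
Mcm6 chr1:128359706-128359855 minus strand: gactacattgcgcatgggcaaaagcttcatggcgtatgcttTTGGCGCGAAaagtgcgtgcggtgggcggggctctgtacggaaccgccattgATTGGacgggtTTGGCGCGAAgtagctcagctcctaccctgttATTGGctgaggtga
Mcm7 chr5:138171267-138171416 minus strand: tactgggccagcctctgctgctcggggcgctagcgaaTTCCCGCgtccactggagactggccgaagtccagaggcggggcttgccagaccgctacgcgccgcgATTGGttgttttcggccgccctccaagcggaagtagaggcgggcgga
Uhrf1 chr17:56303187-56303320 plus strand: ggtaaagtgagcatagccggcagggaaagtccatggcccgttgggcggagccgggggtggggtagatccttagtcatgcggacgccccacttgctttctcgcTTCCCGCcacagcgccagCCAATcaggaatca
Uhrf1 chr17:56304163-56304312 plus strand: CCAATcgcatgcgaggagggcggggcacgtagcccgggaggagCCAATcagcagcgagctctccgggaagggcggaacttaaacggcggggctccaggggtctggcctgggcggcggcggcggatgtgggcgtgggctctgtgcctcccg

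Matches that overlap, also on opposite strands, were each counted. In these stretches Mcm6 held the most E2F matches, 4, which lie in only 2 marked runs. Mcm5 and Mcm7 held 1 each and Mcm2 and Mcm3 none. Mcm3 held 3 CCAAT matches. Full windows of 300 bases, from 250 before to 50 after each start, held more E2F matches: 5 for Mcm6, 3 each for Mcm3 and Mcm5, 3 for Mcm7 in the richer of its 2 windows, and none for Mcm2. Over these windows E2F letters were found in 21 of the 31 member genes (67.7%), against 19.5% of 10958 tested genes with a window and 9.57% of 32851 windows in all. CCAAT was found in 18 (58.1%) against 43.4% of tested genes. The CHR element TTTGAA, known from promoters of mitotic genes, was found in 4 (12.9%) against 14% of tested genes, and the GC box GGGCGG in 23 (74.2%) against 68.3%. The GC box can overlap an E2F match on the other strand. Such matches describe the letters of these windows and no binding was measured.

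In untreated cells, replication genes fell as differentiation went on. All 35 had a lower mean at 48 h than at 1 h and all 35 passed the test (edgeR quasi-likelihood, Benjamini-Hochberg adjusted p under 0.05), where 30.4% of all tested genes were called lower. The median log2 fold change of the members was -1.76, a 3.39-fold fall, beside a median of 0.00 over all tested genes, and the falls ran from -1.14 to -2.49. Without untreated 48 h replicate 2 the median of the members was -1.84. In none of the 35 did the 4 libraries of 48 h overlap those of 1 h; 26.2% of all tested genes were lower without overlap. Summed over the members, the level went from 4944 ± 186 CPM (SD, n = 4) at 1 h to 3759 ± 463 at 8 h, 3101 ± 709 at 24 h and 1480 ± 290 at 48 h.

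**Figure D1:**
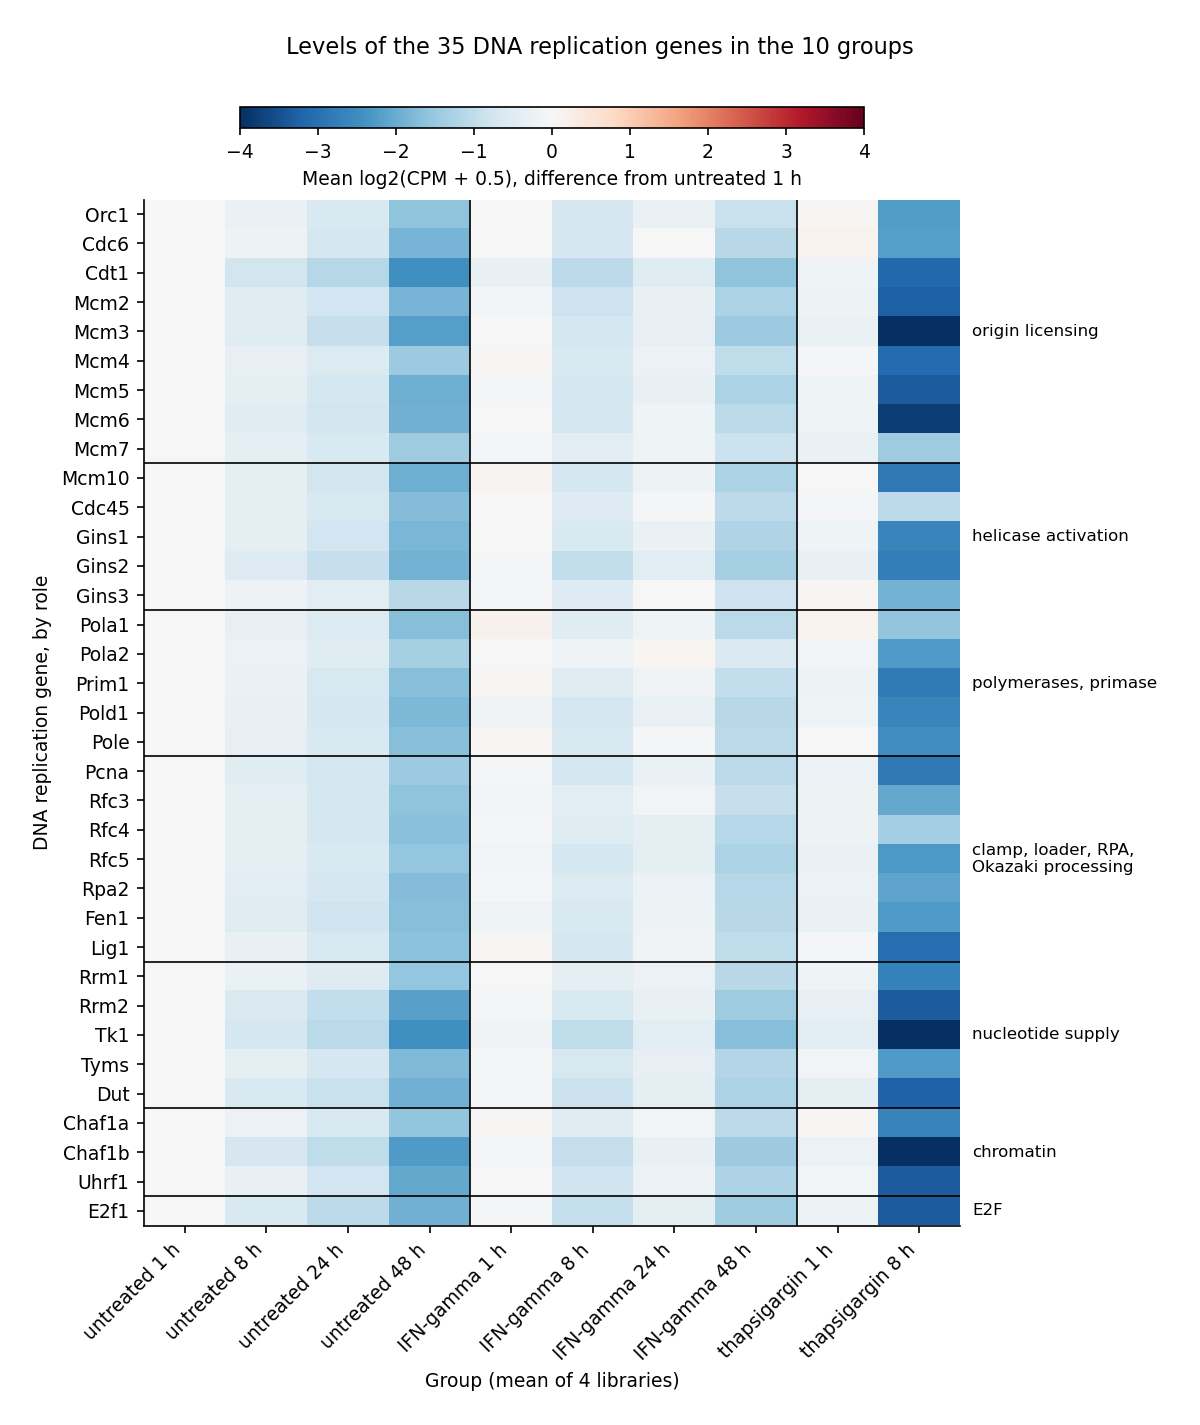
Heat map of the 35 genes (vertical axis, grouped by role) in the 10 groups (horizontal axis), coloured by the mean log2(CPM + 0.5) over 4 libraries as a difference from untreated 1 h. Colours deepen with time in untreated cells and for most genes are deepest at 8 h of thapsigargin. There Chaf1b, Tk1, Mcm3 and Mcm6 are darkest and Cdc45, Rfc4 and Mcm7 palest, Cdc45 being paler than in untreated 48 h. Values under -4 share the darkest colour.

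The fall was smaller from 1 to 24 h than from 24 to 48 h. At 8 h, 0 of 35 members were called by edgeR, where 6.93% of genes were, although 15 had an unadjusted p under 0.05, DESeq2 called 2, and a model of these groups alone called 30. Their median log2 fold change was -0.38, and 27 lay below the 1 h libraries without overlap (8.57% of all genes). At 24 h, 32 of 35 were called lower (14.4% of all genes), with a median of -0.66. Without untreated 24 h replicate 4, 7 members were called and the median was -0.49; without untreated 1 h replicate 3, 19 were called. In untreated 24 h replicate 4 the members averaged 1.30 log2 units under the 1 h mean, where the other libraries of the group lay 0.50 to 0.59 under it. From 24 to 48 h all 35 fell (18.7% of all genes), with a median of -1.10, and 32 did so without overlap (9.05% of all genes). Without untreated 24 h replicate 4 the median from 24 to 48 h was -1.24.

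**Figure D2:**
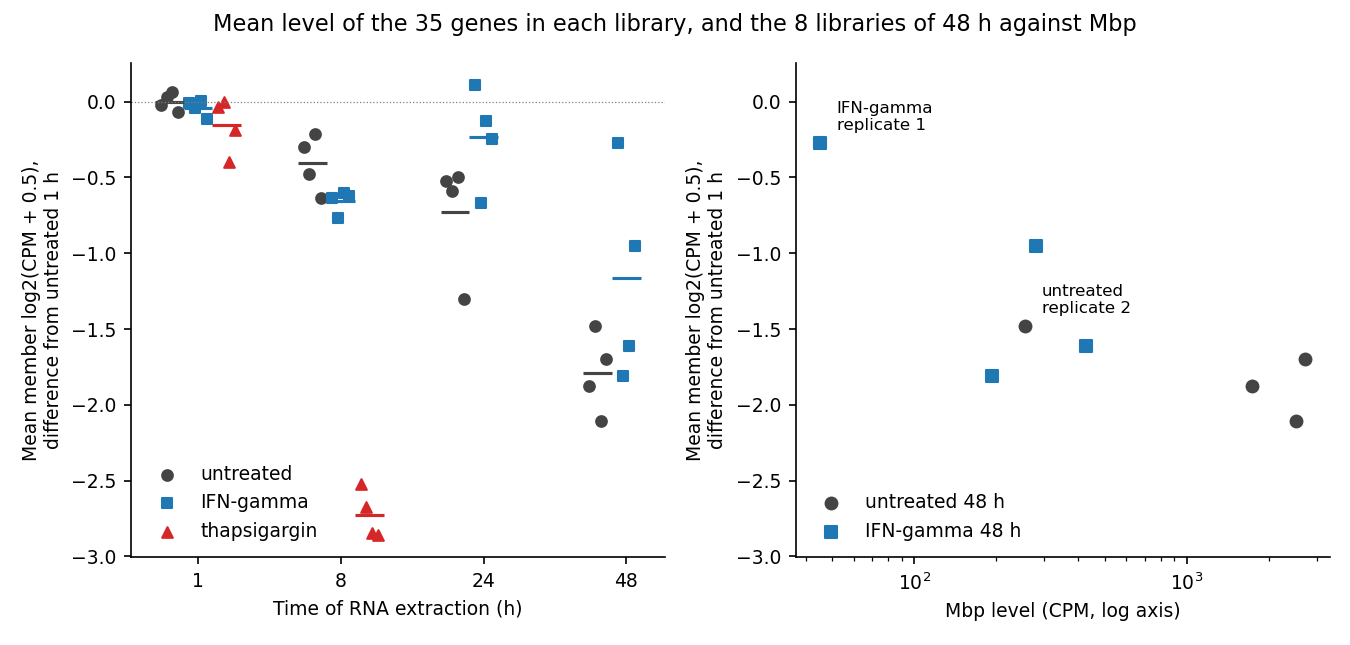
Left, mean log2(CPM + 0.5) of the 35 genes in each library as a difference from untreated 1 h (vertical axis) against time in hours (horizontal axis, not to scale), with bars at group means; right, the same mean against the Mbp level (CPM, log axis) for the 8 libraries of 48 h. Thapsigargin libraries of 8 h lie lowest, between -2.52 and -2.86, and IFN-gamma 48 h replicate 1 combines the highest member mean of its time, -0.27, with the lowest Mbp, 45.2 CPM.

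Among the 9 licensing genes the median log2 fold change from 1 to 48 h was -1.88. Cdt1, the loader of the helicase (ENSMUSG00000006585.3), fell most of all members. It stood at 70.2, 74.8, 70.6 and 62.7 CPM in the libraries of 1 h and at 10.2, 13.6, 10.1 and 15.6 at 48 h. The fold change was -2.49 ± 0.26 on the log2 scale (SE, adjusted p = 2.3e-09). Cdc6, its partner in loading (ENSMUSG00000017499.15), went from 54.3, 53.5, 59.9 and 50.5 CPM to 15.9, 16.2, 11.1 and 15.4. The helicase subunit Mcm2 (ENSMUSG00000002870.8) had 244, 247, 234 and 225 CPM at 1 h and 60.5, 83.2, 50.1 and 68.1 at 48 h. Mcm5 (ENSMUSG00000005410.6), another subunit, went from 267, 289, 299 and 280 CPM to 70.7, 99.0, 50.7 and 77.7. In each of these genes the groups were well apart, and untreated 48 h replicate 2, the library low in Mbp, was the highest of its group for Mcm2, Mcm5 and Cdc6 but not for Cdt1. The remaining subunits Mcm3, Mcm4, Mcm6 and Mcm7 changed by -2.17, -1.46, -1.88 and -1.42 and Orc1, the largest subunit of the origin recognition complex, by -1.79.

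Of the 5 genes that activate the helicase, Gins3 (ENSMUSG00000031669.10), a subunit of the GINS complex, fell least of all members. Its libraries had 20.9, 20.9, 21.2 and 21.05 CPM at 1 h and 7.70, 10.2, 9.28 and 10.96 at 48 h, a log2 fold change of -1.14 ± 0.20 (adjusted p = 5.7e-06). Gins1, Gins2, Cdc45 and Mcm10 changed by -1.86, -1.93, -1.73 and -1.93. The 5 polymerase and primase genes had a median of -1.68. They comprise Pola1 and Pola2, subunits of polymerase alpha, which starts new strands with the primase Prim1, and the catalytic subunits Pold1 and Pole of the polymerases that extend them. Their individual values were -1.68, -1.32, -1.69, -1.79 and -1.68.

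Pcna (ENSMUSG00000027342.14) encodes the sliding clamp that holds polymerases on DNA and had the highest level per length of all members, 176 CPM per kb of exon in untreated 1 h cells, followed by Rrm2 at 117. Orc1 was the lowest at 2.66. Pcna libraries had 407, 439, 452 and 387 CPM at 1 h and 143, 169, 133 and 166 at 48 h, a change of -1.46 ± 0.19. The clamp loader subunits Rfc3, Rfc4 and Rfc5 changed by -1.59, -1.68 and -1.55, the single-strand binding subunit Rpa2 by -1.75, and the flap nuclease Fen1 and the ligase Lig1, which finish Okazaki fragments, by -1.71 and -1.63. Thus these 7 genes lay in a narrow range.

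Nucleotide supply genes had a median of -1.94. Rrm2 (ENSMUSG00000020649.11), the S-phase subunit of ribonucleotide reductase, went from 308, 331, 353 and 306 CPM at 1 h to 62.5, 90.2, 59.9 and 78.8 at 48 h. Tk1 (ENSMUSG00000025574.13), the cytosolic thymidine kinase, went from 64.6, 68.2, 73.4 and 61.4 CPM to 10.4, 18.2, 7.93 and 13.1. Its change of -2.42 ± 0.31 was second only to that of Cdt1. Rrm1, the large reductase subunit, Tyms, which makes thymidylate, and Dut, which removes dUTP, changed by -1.51, -1.76 and -1.94. The chromatin genes were Chaf1a and Chaf1b, subunits of the histone chaperone CAF-1, and Uhrf1, which brings the maintenance DNA methyltransferase to new DNA, and they changed by -1.59, -2.28 and -2.01. E2f1 (ENSMUSG00000027490.17), a transcription factor of S-phase genes, had a low level per length at 1 h, 6.62 CPM per kb, with 19.8, 22.9, 22.3 and 18.5 CPM at 1 h and 4.92, 5.47, 3.99 and 6.27 at 48 h.

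Against untreated cells of the same time, IFN-gamma cells had higher estimates for the members at 24 and 48 h, but the counts called depended on the libraries and the model. At 1 h, 0 of 35 members were called in either direction by edgeR or DESeq2 (1.29% of all genes), and 0 had an unadjusted p under 0.05; 5 lay lower without overlap (4.18% of all genes). At 8 h, 0 were called by either tool while 25.2% of all genes were; 3 had an unadjusted p under 0.05, 13 were called with only the groups compared in the model, the median was -0.29 and 9 members lay below the untreated libraries without overlap (14.8% of all genes). At 24 h the sign was the opposite: all 35 members had a positive estimate against untreated 24 h, with a median of 0.49, and 7 were called higher (12.6% of all genes). These were Cdc6, Cdt1, Pola2, Rfc3, Fen1, Chaf1b and E2f1. E2f1 had 21.4, 12.3, 17.2 and 15.5 CPM with IFN-gamma against 11.6, 11.4, 11.1 and 6.32 without, without overlap and with a log2 fold change of 0.72 ± 0.24 (edgeR adjusted p = 0.027). Only 4 of 35 members were higher without overlap, a smaller share than the 13.4% of all genes: E2f1, Chaf1b, Pola2 and Dut, the last not called. A single member, Pola2, was called without untreated 24 h replicate 4, the library far below its group, and likewise without IFN-gamma 24 h replicate 1; leaving out IFN-gamma replicate 3 left 2 calls, leaving out its replicate 2 gave 22 and leaving out untreated replicate 3 gave 12. A term for the Y-linked level left 1 call, and library numbers 1 to 20 and 21 to 40 alone gave 0 and 13. The effect at 24 h minus that at 8 h had a median of 0.76 over the members, with 32 unadjusted p under 0.05, 0 calls by edgeR, 6 with only the groups compared and 1 by DESeq2 (1.34% of all genes called). Without untreated 24 h replicate 4 that median was 0.56. The effect at 48 h minus that at 24 h had a median of 0.25, with 0 unadjusted p under 0.05 and 0 calls by either tool (1.68% of all genes). Without IFN-gamma 48 h replicate 1 this last median was -0.16.

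At 48 h, 33 of 35 members were called higher with IFN-gamma than in untreated cells, where 16.9% of all genes were called higher, and the median was 0.74, a 1.67-fold difference, beside 0.00 over all genes. Rfc5 (ENSMUSG00000029363.14) and Gins3 were the members not called, at 0.37 ± 0.18 and 0.40 ± 0.20. The libraries overlapped for 34 of 35 members, Pola2 being the only one higher without overlap (9.59% of all genes). Cdt1, with the largest estimate, had 51.2, 13.5, 14.9 and 23.5 CPM with IFN-gamma against 10.2, 13.6, 10.1 and 15.6 without, a log2 fold change of 1.07 ± 0.26 (adjusted p = 0.0015). Rfc5, with the smallest, had 59.3, 22.8, 28.996 and 40.02 CPM against 28.97, 36.1, 23.7 and 28.2. Replicate 1 of the IFN-gamma group was the highest library in both genes, and replicates 2 and 3 lay in or near the untreated range.

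The same library led the remaining members shown by library, in the order of replicates 1 to 4. With IFN-gamma at 48 h, Mcm2 had 189, 60.9, 69.9 and 118 CPM, Mcm5 had 222, 66.998, 87.8 and 142, and Cdc6 had 50.3, 15.3, 16.4 and 29.2. Pcna had 334, 134, 158 and 221 CPM. Rrm2 had 257, 74.2, 75.9 and 139 CPM and Tk1 had 42.4, 9.69, 14.5 and 26.3. E2f1 had 14.4, 4.13, 5.37 and 9.68 CPM. In all of these replicate 1 was highest, replicate 4 next and replicate 2 lowest. Averaged over the 35 members, replicate 1 lay 0.27 log2 units under the untreated 1 h mean, replicate 4 lay 0.95 under it, and replicates 2 and 3 lay 1.81 and 1.61 under it, beside 1.48 to 2.10 in untreated 48 h libraries. IFN-gamma replicate 1 also had the least Mbp and the most of the progenitor marker Pdgfra in its group, 1799 CPM, close to the 1831 of untreated replicate 2. Whether its state or its source accounts for its member level was not tested.

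Without IFN-gamma 48 h replicate 1, 3 members were called, Mcm6, Uhrf1 and Pola2, and the median estimate was 0.37. Leaving out untreated replicate 2 alone gave 34 calls and a median of 0.89. Leaving out both gave 18 calls, all higher, and a median of 0.50. Those 18 were Mcm2, Mcm3, Mcm5, Mcm6, Mcm7, Mcm10, Cdc45, Gins1, Pola1, Pola2, Prim1, Pole, Rfc3, Rfc4, Lig1, Dut, Chaf1b and Uhrf1. All 35 estimates stayed positive in each of these settings. With only the 8 libraries of the comparison in the model, so that their own spread sets the error, 0 members were called. A term for the Y-linked level of each library left 27 calls, and library numbers 1 to 20 and 21 to 40 alone gave 1 and 14. For such settings, here and at the other times, the share of all genes called is not given. Their counts are therefore set only against the main count of members.

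**Figure D3:**
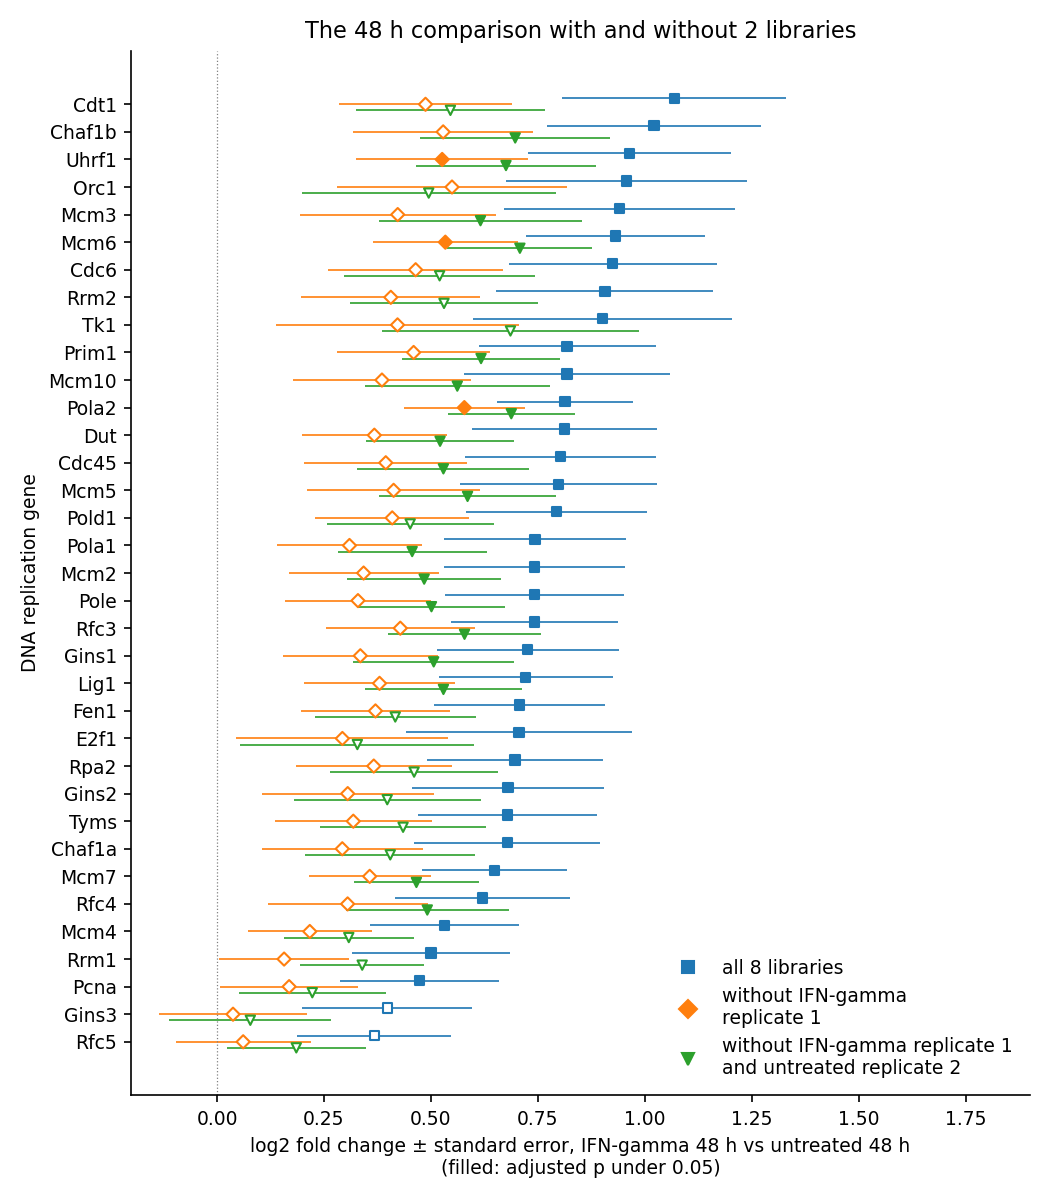
Log2 fold change with its standard error (horizontal axis) for each of the 35 genes (vertical axis) in IFN-gamma 48 h against untreated 48 h, for all 8 libraries and without 1 or 2 of them; filled symbols passed the test. Filled symbols number 33 with all libraries, 3 without IFN-gamma replicate 1 and 18 without that library and untreated replicate 2.

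Within the IFN-gamma cells the members also fell with time, though not steadily. From 1 to 8 h, 26 were called lower (17% of all genes) with a median of -0.66, and 34 lay lower without overlap (20% of all genes). By 24 h the median against 1 h was -0.19 with 0 calls by edgeR and DESeq2 (29.6% of all genes called), 1 with only the groups compared and 0 unadjusted p under 0.05. At 48 h all 35 were lower than at 1 h (25% of all genes) with a median of -1.003. Between 24 and 48 h, 34 were called lower (8.02% of all genes) with a median of -0.82, but 0 did so without overlap (2.81% of all genes). Without IFN-gamma 48 h replicate 1 the median of 48 h was -1.36 against 1 h and -1.19 against 24 h. The 34 calls became 0 without IFN-gamma 48 h replicate 3, 1 without its replicate 2, 2 without IFN-gamma 24 h replicate 1 and 0 in a model of these groups alone. In the 2 libraries of each time low in Y-linked RNA the members averaged 0.11 and -0.13 log2 units relative to untreated 1 h at 24 h, and -0.27 and -1.61 at 48 h. In the other 2 they averaged -0.67 and -0.25 at 24 h, and -1.81 and -0.95 at 48 h, so within each kind of library the values of 48 h lay below those of 24 h.

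Thapsigargin gave the deepest falls. At 1 h, 0 members were called by edgeR or DESeq2 against untreated 1 h (8.79% of all genes), with 0 unadjusted p under 0.05, 3 calls with only the groups compared and a median of -0.17; 6 lay lower without overlap (7.63% of all genes). At 8 h all 35 were called lower than untreated 8 h (31% of all genes), with a median of -2.39, a 5.24-fold fall, beside -0.01 over all genes. No member's libraries overlapped (28.9% of all genes lower without overlap), and the summed level was 765 ± 68.96 CPM against 3759 ± 463. The effect at 8 h exceeded that at 1 h in a test of the difference for 34 members (24.8% of all genes called lower), all but Cdc45. Against IFN-gamma at 8 h all 35 were also lower (31.5% of all genes), with a median of -2.14, and against thapsigargin at 1 h all 35 were lower (30.8%) with a median of -2.58, without overlap in 35 (29.3% of all genes). The comparisons at 8 h share their thapsigargin libraries.

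Sizes differed widely among members at 8 h of thapsigargin, with an SD of 0.78 log2 units across the 35 against 0.29 for the fall from 1 to 48 h in untreated cells. Across the 35 genes the sizes in these comparisons had a Pearson r of 0.59, given as a description, since genes are not independent replicates and the libraries of the comparisons differ but enter 1 model. Falls exceeded 1 log2 unit in 33 members, 2 in 25 and 3 in 5. Chaf1b (ENSMUSG00000022945.11) had the largest fall in the gene table, from 41.1, 36.4, 42.1 and 29.8 CPM in untreated 8 h libraries to 2.38, 2.13, 2.25 and 2.03, a change of -4.08 ± 0.30 (adjusted p = 7.0e-14). Tk1 fell from 48.7, 42.8, 41.3 and 32.9 CPM to 3.13, 2.08, 2.77 and 2.30, a change of -4.01 ± 0.36. The isoform table summed per gene gave a smaller change for Tk1, -2.65, and -3.65 for Chaf1b, so that Mcm3, at -3.83, came first there. At the other end Cdc45 (ENSMUSG00000000028.14) had 35.4, 33.2, 28.6 and 28.5 CPM against 52.9, 51.6, 56.7 and 44.2, a change of -0.71 ± 0.22 (adjusted p = 0.0054). In all of these the groups were apart, with 5.89% of the untreated mean left for Chaf1b and 61.2% for Cdc45.

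**Figure D4:**
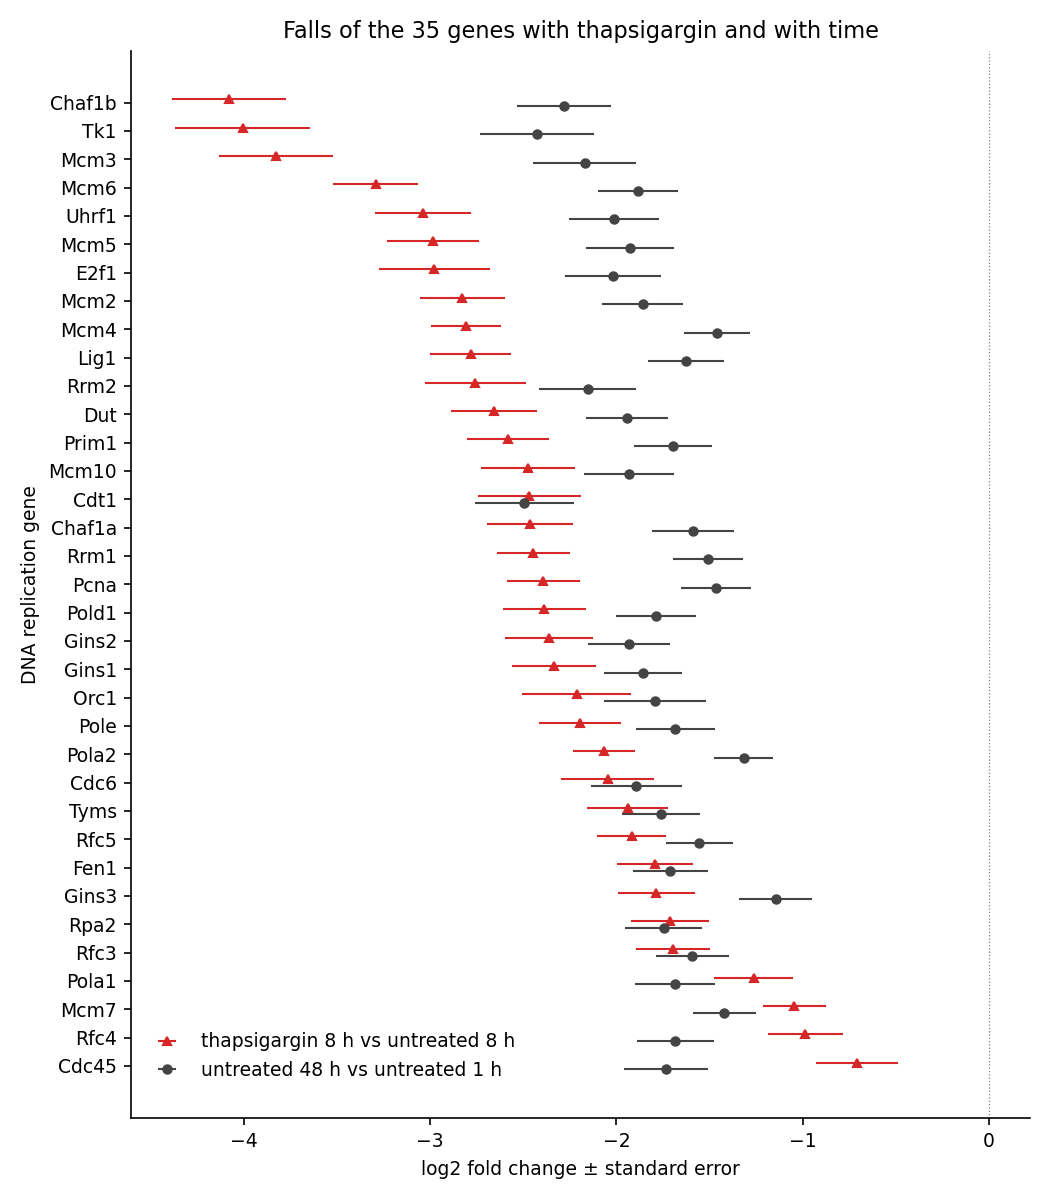
Log2 fold change with its standard error (horizontal axis) for each of the 35 genes (vertical axis, ordered by the fall with thapsigargin), for thapsigargin 8 h against untreated 8 h and for untreated 48 h against untreated 1 h. The thapsigargin values spread from -4.08 for Chaf1b to -0.71 for Cdc45, while the untreated values lie between -2.49 and -1.14.

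The 6 subunits of the Mcm helicase, which had changed by -1.42 to -2.17 with time, spread further apart under thapsigargin. Mcm3 and Mcm7, singled out after their values were seen, were the extremes. Mcm3 had 11.5, 10.4, 8.50 and 8.33 CPM with thapsigargin against 158, 124, 161 and 110 in untreated 8 h libraries, a change of -3.83 ± 0.31, and 7.02% of the untreated mean was left. Mcm7 had 109, 108, 110 and 112 CPM against 235, 215, 251 and 203, a change of -1.04 ± 0.17, and 48.5% was left. Between them lay Mcm6 at -3.29, Mcm5 at -2.98, Mcm2 at -2.83 and Mcm4 at -2.81. Mcm2 libraries had 26.5, 25.99, 22.3 and 22.3 CPM against 188, 159, 194 and 149, and Mcm5 libraries 33.1, 29.9, 23.4 and 25.7 against 248, 203, 242 and 196. Per length, Mcm7, Mcm5 and Mcm6 had been close in untreated 1 h cells, at 66.4, 71.1 and 72.7 CPM per kb. At 8 h of thapsigargin Mcm6 kept 10.2% of its untreated 8 h mean.

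Of the other licensing genes, Cdt1 had 8.995, 8.17, 6.69 and 6.23 CPM with thapsigargin against 47.8, 37.5, 49.4 and 32.6, and Cdc6 had 14.0, 11.05, 9.40 and 11.5 against 52.04, 42.5, 59.2 and 36.7. Orc1 changed by -2.21. The helicase activators Mcm10, Gins1, Gins2 and Gins3 changed by -2.47, -2.34, -2.36 and -1.78. Among polymerase genes Pola1 changed least, by -1.26, beside -2.07 for its partner Pola2, -2.58 for Prim1, -2.39 for Pold1 and -2.20 for Pole. Pcna had 64.9, 60.3, 54.7 and 53.5 CPM against 347, 299, 330 and 247. Of the clamp loader subunits Rfc4 changed by -0.99, and Rfc3 and Rfc5 by -1.70 and -1.92. Rpa2, Fen1 and Lig1 changed by -1.71, -1.79 and -2.78. Rrm2 had 34.2, 38.7, 27.4 and 28.1 CPM against 238, 209, 252 and 170, and Rrm1, Tyms and Dut changed by -2.44, -1.94 and -2.66. Chaf1a changed by -2.46. E2f1 was down to 2.38, 1.92, 1.22 and 1.25 CPM from 14.6, 11.1, 18.1 and 10.9, a change of -2.98 ± 0.30.

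Several of these genes share exon bases with a neighbour on the opposite strand, and whether reads were counted by strand is not given in the sources used here. In the GENCODE M21 annotation 9 of the 35 members overlap a protein-coding gene. They include members with small and with deep falls under thapsigargin. Among those with small falls, Cdc45 shares 209 bases (5.96% of its exon bases) with Ufd1, Rfc4 shares 194 (12.7%) with Eif4a2, and Mcm7 shares 321 (7.25%) with Ap4m1 and 64 with Cops6. At 8 h Ufd1 averaged 59.1 ± 1.89 CPM untreated and 87.9 ± 2.21 with thapsigargin. In the same order Eif4a2 had 398 ± 8.43 and 452 ± 10.9, Ap4m1 42.4 ± 1.58 and 42.5 ± 3.45, and Cops6 51.9 ± 3.63 and 42.4 ± 3.42. Among members that fell by more, Gins2 shares 67.3% of its exon bases with Gse1, Chaf1a 52.5% with Ubxn6, Rfc5 10.7% with Wsb2, Lig1 5.79% with Zswim9, Fen1 5.37% with Tmem258 and Tk1 1.60% with Afmid. At 8 h, untreated and then with thapsigargin, Gse1 had 10.1 ± 1.63 and 10.3 ± 2.25 CPM, Ubxn6 36.1 ± 4.64 and 46.9 ± 2.38, and Wsb2 158 ± 12.5 and 105 ± 3.37. Zswim9 had 23.5 ± 4.14 and 21.9 ± 1.13, Tmem258 62.2 ± 5.97 and 87.9 ± 2.74, and Afmid 1.47 ± 0.22 and 1.58 ± 0.29. Counting neighbours that do not code for protein, 11 of the 35 members have an overlap. The largest is that of Fen1, which shares 1909 bases (78.8%) with the antisense gene Gm10143, and Orc1 shares 376 (10.8%) with Gm12743. The part of the neighbours in the size of any fall was not tested. Estimated counts from the deposited isoform table, summed per gene, gave -0.74 for Cdc45, -0.93 for Rfc4, -1.05 for Mcm7, -1.91 for Gins2, -2.55 for Chaf1a and -1.71 for Rfc5. They gave -1.87 for Fen1, -2.77 for Lig1 and -2.65 for Tk1. Pola1, another member with a small fall, has no such overlap.

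Uhrf1, looked at by transcript after its values were seen, changed in make-up as well as in level. Uhrf1-201 begins at chr17:56303321 and Uhrf1-202 and Uhrf1-204 about 1 kb downstream at chr17:56304313 and chr17:56304348 (GRCm38), so the stretches shown above lie before the first and the second start. The first stretch holds 1 E2F match and 1 CCAAT match, the second 2 CCAAT matches and no E2F letters. Uhrf1-204 shares 16 of its 17 exons with Uhrf1-201, so the estimated split rests on few bases. In untreated 8 h libraries Uhrf1-201 took 63.1, 56.6, 63.1 and 51.3% of the estimated Uhrf1 counts, and with thapsigargin 25.3, 7.43, 37.0 and 31.2%. The transcripts of the second start together went from 39.9% ± 6.14 (SD, n = 4) to 73.7% ± 13.6. At 1 h of thapsigargin Uhrf1-201 was at 66.3% ± 3.35, and in untreated 48 h cells, where Uhrf1 had fallen with time, at 62.9% ± 8.20. The shares at 8 h did not overlap, and at thapsigargin 8 h they rest on only 39.2 to 153 estimated counts of Uhrf1-201 per library.

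**Figure D5:**
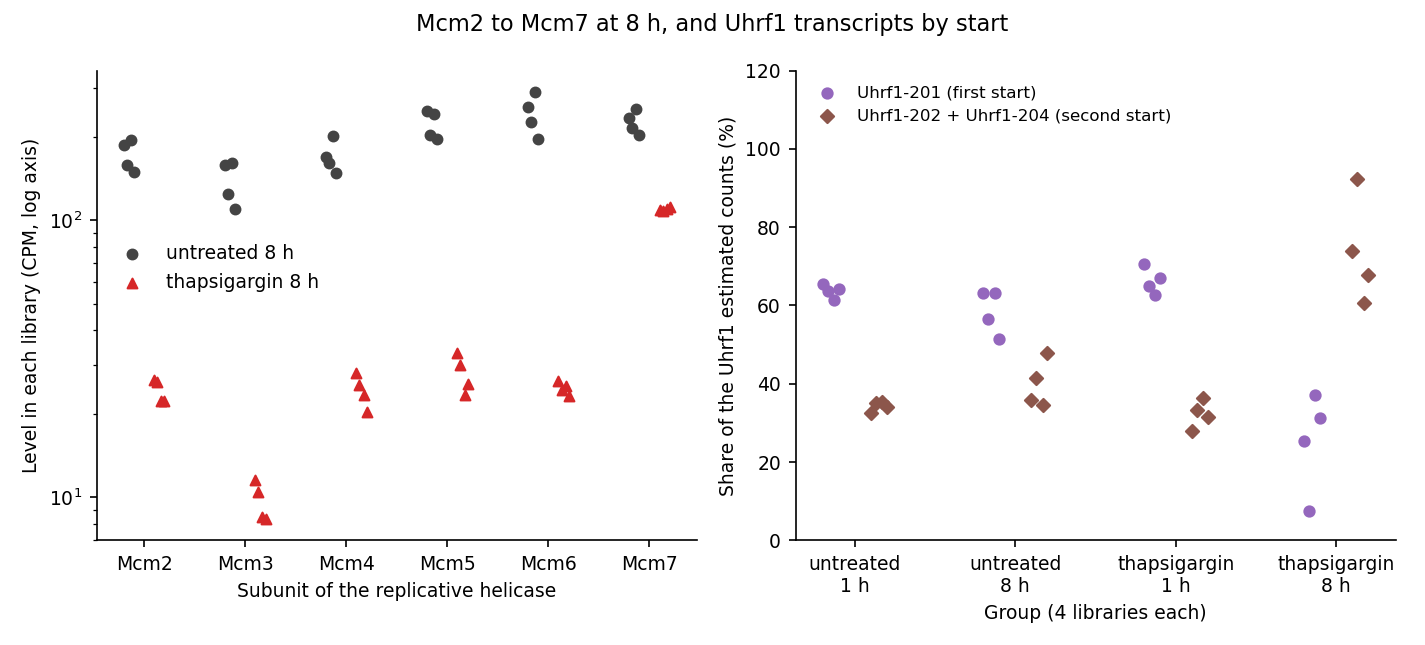
Left, CPM (log axis) of Mcm2 to Mcm7 in each library of untreated 8 h and thapsigargin 8 h; right, share of the estimated Uhrf1 counts (%) taken by Uhrf1-201 and by Uhrf1-202 plus Uhrf1-204 in each library of 4 groups. Mcm7 stays above 100 CPM with thapsigargin while Mcm3 falls to between 8.33 and 11.5, and of the 4 groups shown the Uhrf1 shares change places at 8 h of thapsigargin.

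Cell-cycle genes outside the 35 were read from lists chosen by function. Of all tested genes, 30.4% were called lower from 1 to 48 h, 31% lower with thapsigargin at 8 h and 16.9% higher with IFN-gamma at 48 h. These shares stand beside the counts of all lists here and below. Shares called the other way are not given, so counts in those directions have no background beside them. Among 43 other origin and fork genes, 38 fell and 2 rose from 1 to 48 h in untreated cells, with Pclaf, a Pcna-binding factor, at -1.99, Ticrr at -1.81, Clspn at -1.79 and Pole2 at -1.77. With thapsigargin at 8 h, 34 fell and 6 rose; among those that fell, Pole2, Rpa1 and Hells changed by -2.77, -2.51 and -2.35. The 6 that rose were Orc2, Orc3, Orc4, Orc5, Pole4 and Pold2. The origin recognition subunits among them, named after their values were seen, rose by 0.53, 0.37, 0.84 and 0.57, while Orc6 and Orc1 changed by -1.25 and -2.21. At 48 h of IFN-gamma 23 of the 43 were higher and 0 lower, led by Hells, Clspn, Pclaf and Atad2 at 0.95, 0.94, 0.85 and 0.78, and 3 were higher without IFN-gamma replicate 1.

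All 30 genes of G2 and mitosis fell from 1 to 48 h, with Mybl2, Aurkb, Ube2c and Cdk1 at -2.01, -1.92, -1.81 and -1.80, and 28 fell with thapsigargin, with a median of -1.04 against -2.39 for the replication genes. Mki67, the proliferation marker, changed by -1.50 ± 0.23 with time and by -1.45 ± 0.23 with thapsigargin, and Gmnn, which holds Cdt1 inactive, by -1.69 ± 0.26 and -1.99 ± 0.28. At 48 h of IFN-gamma 22 of the 30 were higher, with Top2a, Mybl2, Cenpf and Aurkb at 1.00, 0.93, 0.78 and 0.75; this count was 1 without IFN-gamma replicate 1.

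Regulators of the G1 to S step did not move as a block. From 1 to 48 h, 21 of 31 fell and 4 rose. Ccnd1, the D cyclin that starts Rb phosphorylation, went from 1471 ± 66.7 to 262 ± 91.3 CPM, and the inhibitor Cdkn1c from 3.62 ± 0.66 to 23.2 ± 9.09, a change of 2.66 ± 0.35. E2f7 and Mycn changed by -1.96 and -1.92. With thapsigargin 17 fell (31% of all genes) and 6 rose. Ccne2, E2f8, E2f2 and Cdk2 changed by -3.07, -2.93, -2.80 and -2.66. The inhibitor Cdkn1b, known as p27, rose from 137, 137, 129 and 122 CPM to 365, 389, 335 and 329, a change of 1.43 ± 0.08, and Cdkn1a, known as p21, from 63.4 ± 5.77 to 92.6 ± 3.72, a change of 0.55 ± 0.18. Ccnd1 changed by -1.11 ± 0.26 and Cdkn1c was at 0.09 ± 0.39. At 48 h of IFN-gamma, 8 were higher and 6 lower than untreated (4 and 5 without IFN-gamma replicate 1): Ccnd1 at 1.44, E2f7 at 0.92, Ccnd2 at -1.14 and Cdkn1c at -0.89. In IFN-gamma replicate 1 Cdkn1c was at 4.93 CPM, against 10.1 to 17.8 in the other 3, and Ccnd1 at 1307, against 394 to 733. Mki67, Gmnn, Cdkn1b and Cdkn1a stood at 0.56, 0.67, 0.30 and 0.44 in this comparison, the last not called.

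Of 18 p53 targets, 15 fell from 1 to 48 h (30.4% of all genes), with Plk2, Gtse1, Ddit4l and Pmaip1 at -1.84, -1.80, -1.61 and -1.59. With thapsigargin 11 fell and 5 rose, with Sesn2 at 1.77, Gtse1 at -1.60, Trp53inp1 at -1.31 and Bbc3 at 1.27. At 48 h of IFN-gamma 10 were higher, led by Plk2, Eda2r, Gtse1 and Aen at 0.86, 0.69, 0.62 and 0.60, and 5 without IFN-gamma replicate 1. Myelin genes moved the other way from the members in the comparisons over time and at 48 h of IFN-gamma. All 11 tested myelin markers rose from 1 to 48 h in untreated cells, with a median of 3.44, and 10 were lower with IFN-gamma at 48 h, with a median of -1.97; 9 were lower without IFN-gamma replicate 1. Under thapsigargin at 8 h 3 of the 11 myelin markers and 10 of 12 progenitor markers fell. With thapsigargin the progenitor markers had a median of -1.004, with the shared lineage factors Olig2 and Sox10 at 348 ± 33.05 and 343 ± 47.8 CPM against 816 ± 85.1 and 589 ± 50.7. Of 8 astrocyte markers, 6 rose and 1 fell from 1 to 48 h, with a median of 1.74, and 2 were higher and 4 lower with IFN-gamma at 48 h, with a median of -0.92; 3 fell with thapsigargin. Of 7 tested neuron markers, 1 rose and 4 fell from 1 to 48 h, 3 were higher with IFN-gamma at 48 h, and 4 rose and 1 fell with thapsigargin. For myelin and astrocyte markers the shares that fell with thapsigargin lay near that of all genes. The part of these marker shifts in the member values was not tested.

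Members kept close to each other across the 40 libraries. The correlation of each member's log2 level with the mean of the others was highest for Mcm10 (r = 0.995) and lowest for Cdc45 (r = 0.847), Rfc4 (r = 0.902) and Pola1 (r = 0.942), over libraries that fall into groups, so these are descriptions. The genes outside the list with the closest pattern over the 40 libraries were Dtl and Exo1 (r = 0.996 each), Pclaf (0.995), Rad51ap1 and Dnajc9 (0.993 each), Dnmt1 (0.992), Melk (0.991), Mybl2 (0.990), and Wdhd1 and Fignl1 (0.989 each).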

How the data were processed

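RNA was measured in 40 libraries, 4 in each of 10 groups taken from the sample labels. The deposited gene table holds whole-number read counts per gene, and the deposited isoform table holds estimated counts per transcript. STAR, featureCounts, kallisto and edgeR are named in the submitters' processing notes; build, annotation and strand setting: not given in the sources used here. Libraries held between 13165483 and 22651092 counted reads, so the lowest genes are the least precise. Genes were filtered with filterByExpr by group, leaving 15135, scaled by TMM and fitted in edgeR 4.0.16 (R 4.3.3, limma 3.58.1) with 10 group means and 30 residual degrees of freedom. The quasi-likelihood test was used with a prior count of 0.125, and calls needed an adjusted p (Benjamini-Hochberg, all tested genes) under 0.05. Levels are CPM on TMM sizes, and means over members use log2(CPM + 0.5). The scripts were tested on simulated data. Alternatives were DESeq2 1.42.0, other scaling, no filter, estimated counts summed per gene and rounded, library-number ranges, a Y-linked term and leaving out libraries. Symbols, lengths and exon overlaps come from GENCODE M21 and upstream sequence from RefSeq. The members and lists were chosen with earlier results of these data known. Values per library are given for 8 preset members and for those with the largest and smallest change in the main comparisons, and up to 4 called genes with the largest change are named per list. A gene that this rule would name is not reported here.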

Additional observations from a re-analysis of the deposited data

Results flagged for a closer look

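In 130 checks of groups of 4 libraries, 11 held a library whose gap to the nearest of the others took more of the group's range than Dixon's critical value allows. Chance gives about 1 in 20 for independent checks. These checks share libraries and their genes move together, so that rate is no yardstick for the count. Of the 11, 6 concern untreated 24 h replicate 4, which was far below its group. They are Mcm2 at 99.8 CPM, Mcm5 at 109.8, Gins3 at 11.1, Rrm2 at 93.1 and E2f1 at 6.32. The last is the mean of the 35 members, which includes those genes, at -1.30 log2 units relative to untreated 1 h. The same library had 325 CPM of Mbp against 89.8 to 120 in its group, and the part of its maturation in these values was not tested. The other 5 are Cdc6 at 11.1 CPM in untreated 48 h replicate 3, Rfc5 at 93.3 CPM in untreated 1 h replicate 3, Mcm2 at 211 CPM in IFN-gamma 1 h replicate 2, and Cdc6 at 46.0 and Cdt1 at 46.8 CPM in thapsigargin 1 h.

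The thapsigargin effect differed between 8 h and 1 h for 34 of 35 members in a test of the difference itself (edgeR).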

How the results depend on the processing

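All 35 members were called lower from 1 to 48 h in untreated cells under every alternative run, and at 8 h of thapsigargin against untreated under all but library numbers 1 to 20, which gave 34; no call reversed. Other counts of members called moved, and the share of all genes called under each alternative is not given here. With DESeq2 they were 2 for untreated 8 h against 1 h, 12 for IFN-gamma at 24 h and 1 for its effect at 24 h minus 8 h. With the isoform table they were 17 for untreated 24 h against 1 h, 16 for IFN-gamma 8 h against 1 h and 3 for IFN-gamma at 24 h. Within library numbers 1 to 20 they were 0 for untreated 24 h against 1 h, 2 for untreated 48 h against 24 h, 0, 4 and 0 for IFN-gamma 8 h against 1 h, 48 h against 1 h and 48 h against 24 h, and 0 and 1 for IFN-gamma against untreated at 24 and 48 h. Within numbers 21 to 40 they were 9 for IFN-gamma 8 h against 1 h, and 13 and 14 for IFN-gamma at 24 and 48 h. With only the groups compared they were 30 for untreated 8 h against 1 h, 1 and 0 for IFN-gamma 24 h against 1 h and 48 h against 24 h, 13 and 0 for IFN-gamma at 8 and 48 h, 3 for thapsigargin at 1 h and 6 for the IFN-gamma effect at 24 h minus 8 h. With a Y-linked term they were 1 for IFN-gamma at 8 h and 1 at 24 h. Without both doubted libraries of 48 h, 18 were called for IFN-gamma. The cause of these moves was not tested, apart from the fewer libraries that some alternatives hold.

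Leaving out 1 library at a time gave 0 to 1 calls for untreated 8 h against 1 h, 7 to 32 for 24 h against 1 h, 0 to 35 for IFN-gamma 48 h against 24 h, 1 to 22 and 3 to 35 for IFN-gamma at 24 and 48 h, and 0 to 2 for the IFN-gamma effect at 24 h minus 8 h. No paired analysis was possible because the labels give each library its own number and tie no libraries together across groups. A block for the library-number ranges gave 2 calls for untreated 8 h against 1 h and 13 for IFN-gamma at 24 h.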
